A study of Arabidopsis thaliana with 22 samples.

Results

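SDI1 and SDI2, the sulfur deficiency induced genes 1 and 2 of Arabidopsis thaliana, are described here across a time course of sulfate withdrawal in roots. The pair is covered by 2 of 22810 probe sets on the array, 248676_at for SDI1 and 261177_at for SDI2 (AT1G04770). The 2 probe sets were chosen by name with earlier results of these data known, in which their signal was higher without sulfate, so their differences between media are given below as a description with no test. The platform annotation lists AT1G04770 for 261177_at and does not list 248676_at, so the assignment of 248676_at to SDI1 (AT5G48850) comes from the definition of the pair and was not checked here.

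Roots came from 10-day-old Col-0 plants, an Arabidopsis laboratory accession. Plants had been moved to MGRL agar with 0 uM sulfate (sulfate-free) or 1500 uM sulfate (replete) and were sampled 2, 4, 8, 12 and 24 h later, and 1 further group, labelled 0 h, was not transferred (untreated). Each of the 11 groups had 2 arrays, A and B. Whether A and B stand for separate cultures is not stated in the labels, and p-values therefore cover the spread between the arrays, which may be technical.

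SDI1 and SDI2 encode small tetratricopeptide repeat proteins related to MALE STERILITY 5 (MS5), a protein of male meiosis. Both transcripts are known in Arabidopsis as markers of sulfur limitation and lie downstream of SLIM1 (EIL3), the transcription factor that directs much of the root response to low sulfur. Both proteins repress the synthesis of aliphatic glucosinolates, sulfur-rich defence compounds derived from methionine, and SDI1 binds MYB28, the main activator of that pathway. SDI1 has also been tied to the use of stored sulfate.

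Values are deposited MAS5 signals on a linear scale, given per array and as mean ± SD (n = 2). Differences are on a log2(signal + 11) scale, with the standard error (SE) from limma. That scale understates changes of dim probe sets such as SDI1 on replete medium. Array medians ranged over 42.5 to 46.1 and the 25th percentiles over 9.5 to 13.8. As the roots were measured in bulk, more cells with a transcript and more transcript per cell cannot be told apart.

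Without sulfate, SDI1 was higher than on replete medium at every time, and its level kept climbing to 24 h. At 24 h its signal was 1122 and 1256 on the sulfate-free arrays (A and B), against 42.9 and 40.1 on the replete arrays. The means were 1189 ± 95.0 and 41.5 ± 1.94 (SD, n = 2 each), a ratio of 28.7, with a log2 difference of 4.51 (SE 0.30). Both sulfate-free arrays stood far above every other array of the series for this gene.

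At 12 h SDI1 gave 498 and 515 on sulfate-free arrays, against 51.5 and 33 on replete arrays, a log2 difference of 3.30 (SE 0.30). At 8 h the signals were 218 and 317 on sulfate-free arrays and 14.8 and 27.0 on replete arrays, a log2 difference of 3.13 (SE 0.30). The response was thus a difference of more than 3 on the log2 scale from 8 h on.

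At 4 h the sulfate-free arrays differed widely from each other, with 36.7 on A and 99.3 on B, against 6.23 and 10.8 on the replete arrays (log2 difference 1.90, SE 0.30). Without the sulfate-free array A the 4 h difference was 2.51, and without array B it was 1.30. At 2 h SDI1 gave 34.0 and 52.5 on sulfate-free arrays and 8.16 and 6.99 on replete arrays (log2 difference 1.53, SE 0.30). Signals on replete medium at 2 h, and on array A at 4 h, lay below the 25th percentile of their arrays, so they are not shown to be above background. The sizes of the early differences therefore depend on the pseudocount. At 2 h the log2 difference was 2.34 with a pseudocount of 1 and 0.75 with a pseudocount of the pooled median.

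**Figure D1:**
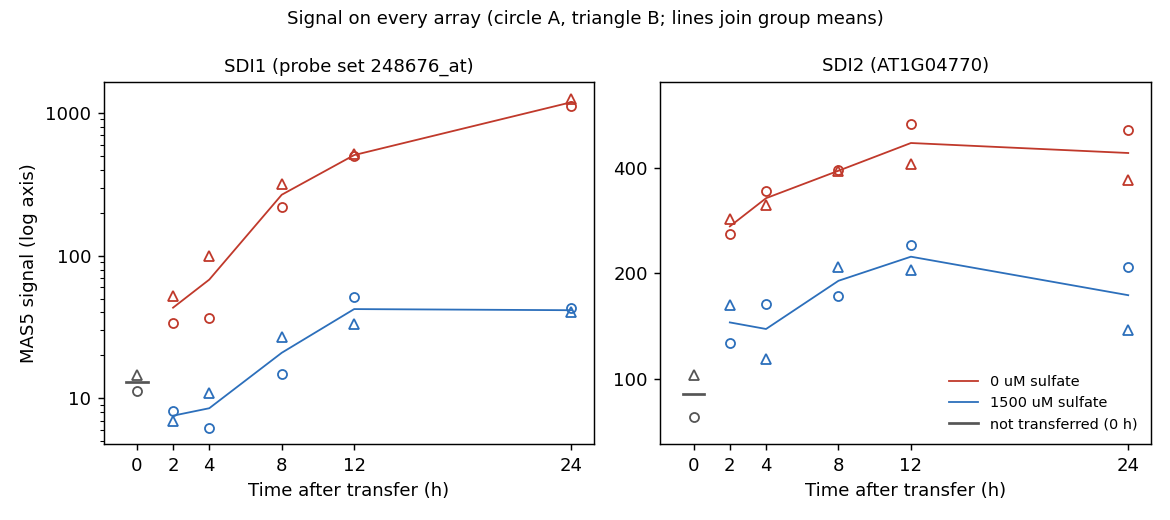
MAS5 signal (log axis, with a different range in each panel) of SDI1 and SDI2 on every array against time after transfer, in 0 uM sulfate, 1500 uM sulfate and untreated roots. Circles are arrays A, triangles arrays B, and lines join group means. SDI1 without sulfate reached 1122 and 1256 at 24 h, while SDI2 without sulfate was already at 258 and 286 at 2 h.

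SDI2 was higher without sulfate from the first time on, by a factor that stayed close to that of the later times. At 2 h its signal was 258 and 286 on sulfate-free arrays (A and B), against 127 and 163 on replete arrays. At 4 h it was 342 and 312 without sulfate and 164 and 114 with it. At 8 h it was 393 and 390 without sulfate and 173 and 208 with it. The lowest of these 6 sulfate-free values exceeded the highest of the 6 replete values.

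At 12 h SDI2 gave 531 and 409 on sulfate-free arrays and 241 and 204 on replete arrays. At 24 h it gave 511 and 369 on sulfate-free arrays and 208 and 138 on replete arrays, with array A above array B in both media. The ratio of means was 1.88, 2.36, 2.06, 2.11 and 2.54 at 2, 4, 8, 12 and 24 h. The log2 differences were 0.87, 1.20, 1.01, 1.03 and 1.30, each with an SE of 0.22.

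Both sulfate-free arrays lay above both replete arrays at each of the 5 times for both genes. Of all probe sets tested, 13.2%, 11.2%, 16.6%, 19% and 13.4% showed such a separation in this direction in order of time. For SDI2 the separation also held across times, since the lowest of its 10 sulfate-free signals was 258 and the highest of its 10 replete signals was 241. That was true of 4 probe sets, or 0.0293% of those tested. The others were AT3G56200, annotated as a putative amino acid transporter, and 2 probe sets that are unnamed here. SDI1 did not separate across times, since its replete signals at 12 h reached 51.5 while its sulfate-free signals at 2 h were 34.0 and 52.5. Since the choice of the pair rests on this contrast, nothing is read from these shares.

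The time courses of the pair differed in shape. As a share of its own 24 h mean, SDI1 without sulfate stood at 3.64%, 5.72%, 22.5% and 42.6% at 2, 4, 8 and 12 h. On the same measure SDI2 stood at 61.8%, 74.3%, 89.0% and 107%. From 12 to 24 h the mean of SDI1 grew 2.35-fold with no overlap between arrays, while that of SDI2 changed by a factor of 0.936 and its arrays overlapped. The difference between media at 24 h exceeded that at 2 h by 2.99 (SE 0.43) for SDI1 and by 0.43 (SE 0.31) for SDI2 on the log2 scale. Over the 5 times together the mean log2 difference was 2.87 (SE 0.14) for SDI1 and 1.08 (SE 0.10) for SDI2. These values come from the contrast behind the choice of the genes, and whether the genes differ was not tested.

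**Figure D2:**
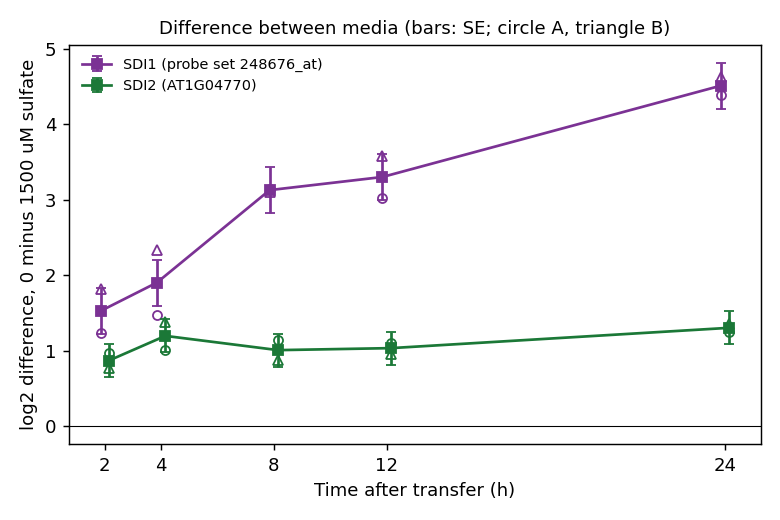
Difference between media (0 minus 1500 uM sulfate, log2(signal + 11) scale) against time after transfer for SDI1 and SDI2. Squares are the fitted differences with their SE, circles and triangles the differences within arrays A and within arrays B. The difference of SDI1 widens to 4.51 at 24 h and that of SDI2 stays between 0.87 and 1.30.

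The difference had the same sign in arrays A and in arrays B at every time. For SDI1 the ratio between media at 24 h was 26.2 in A and 31.3 in B, and at 2 h it was 4.17 in A and 7.51 in B. For SDI2 the ratio lay between 2.03 and 2.45 in A and between 1.76 and 2.75 in B. The within-group SD was 0.35 for SDI1 and 0.24 for SDI2 on the log2 scale.

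Set against untreated roots, sulfate-free roots had more transcript of both genes at every time. SDI1 gave 11.3 and 14.6 on the untreated arrays (13.0 ± 2.28, SD, n = 2). The sulfate-free mean was 3.34, 5.25, 20.6, 39.1 and 91.8 times that level in order of time. The untreated signals of SDI1 lay close to the 25th percentile of their arrays (10.5 and 10.7), so these ratios rest on a dim reference. On the log2(signal + 11) scale the fold at 24 h was 50.1. SDI2 gave 77.8 and 103 on the untreated arrays (90.2 ± 17.6, SD, n = 2). The sulfate-free mean of SDI2 was 3.01, 3.63, 4.34, 5.21 and 4.88 times that level in order of time. These sulfate-free arrays are those of the contrast above, so no test is given.

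Both genes were also compared with untreated roots on replete medium, where sulfate was not withdrawn. SDI2 passed the test for a rise at 8 and 12 h, and for SDI1 no change is claimed. This contrast, replete minus untreated, was not used to choose the genes, although it shares the replete arrays with the contrast between media. It sets replete roots after transfer against roots that were not transferred. Time after transfer, the move itself, plant age and time of day cannot be told apart in it.

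SDI2 was above untreated roots on every replete array. The replete means were 145 ± 25.3, 139 ± 35.4, 190 ± 25, 223 ± 25.8 and 173 ± 49.8 at 2, 4, 8, 12 and 24 h, against 90.2 ± 17.6 in untreated roots (SD, n = 2 each). By limma, SDI2 rose at 8 h (log2 difference 0.997, SE 0.22, adjusted p = 0.0129) and at 12 h (1.21, SE 0.22, adjusted p = 0.0029). At 2, 4 and 24 h the differences were 0.62, 0.55 and 0.85, with limma adjusted p = 0.165, 0.279 and 0.326. Without the untreated array A limma gave an adjusted p of 0.18 for 8 h and 0.0667 for 12 h, and without the replete array B of 8 h one of 0.0803 for 8 h.

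SDI1 on replete medium lay below untreated roots early, which did not pass the test, and above them late. The means were 7.57 ± 0.82, 8.54 ± 3.27, 20.9 ± 8.59, 42.3 ± 13.1 and 41.5 ± 1.94 at 2, 4, 8, 12 and 24 h, against 13.0 ± 2.28 in untreated roots (SD, n = 2 each). At 2 and 4 h all 4 replete arrays lay below both untreated arrays, with log2 differences of -0.36 and -0.30 (SE 0.30, limma adjusted p = 0.684 and 0.821). At 8 h both replete arrays lay above both untreated arrays, at 14.8 and 27.0 (log2 difference 0.39, limma adjusted p = 0.514).

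SDI1 passed the filter on low values only through its sulfate-free arrays, so its adjusted p-values against untreated roots are a description and support no claim. At 12 h SDI1 was higher by 1.13 on the log2 scale (SE 0.30, limma adjusted p = 0.0347), a ratio of means of 3.26. That call was lost without any 1 of its 4 arrays (limma adjusted p between 0.0674 and 0.24), without the filter (0.0635), with quantile normalization (0.0563) and with a pseudocount of the pooled median (0.097). At 24 h the log2 difference was also 1.13 (SE 0.30), with limma adjusted p = 0.326. The unadjusted p of SDI1 was nearly equal at 12 h (0.00174) and 24 h (0.00173), while 349 of all probe sets rose at 12 h and 5 at 24 h.

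Thus 0, 0, 1, 2 and 0 of the pair passed the threshold for a rise on replete medium at 2, 4, 8, 12 and 24 h. The count at 12 h includes SDI1, whose place among the probe sets tested rests on its sulfate-free arrays, so nothing is read from these counts. The share of all 13648 probe sets that rose was 2.45%, 1.77%, 2.37%, 2.56% and 0.0366% at these times. The shares with both replete arrays above both untreated arrays were 17.8%, 17%, 23.9%, 29.5% and 19%, and nothing is read from the separation of a single gene. At 2 and 4 h, 25.4% and 19.6% of probe sets lay below both untreated arrays, as SDI1 did.

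Within replete medium, the later arrays of SDI1 were also set against those of 2 and 4 h. These contrasts were chosen for a pattern already seen, SDI1 passed the filter on low values only through its sulfate-free arrays, and both arrays of 2 h and array A of 4 h lay below the 25th percentile of their arrays. The adjusted p-values below are therefore a description and support no claim, and no fold is given. The log2 difference was 1.5 for 24 h minus 2 h (SE 0.30, limma adjusted p = 0.0104) and 1.5 for 12 h minus 2 h (limma adjusted p = 0.00608). Against 4 h it was 1.44 at 24 h and 1.43 at 12 h (limma adjusted p = 0.0285 and 0.0191). For 8 h minus 2 h and 8 h minus 4 h it was 0.75 and 0.69 (limma adjusted p = 0.206 and 0.466).

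Of all probe sets, 1.04% rose in the contrast of 24 h minus 2 h, 2.5% in 12 h minus 2 h and 1.43% in 8 h minus 2 h. For 24 h, 12 h and 8 h minus 4 h the shares were 0.366%, 0.564% and 0.117%. Without any 1 of its 4 arrays, the difference at 24 h against 2 h had a limma adjusted p between 0.0713 and 0.0797. Without the replete 12 h array A, the difference at 12 h against 2 h had a limma adjusted p of 0.0891. Each difference against 4 h, at 12 h and at 24 h, no longer passed the threshold without any 1 of 3 arrays (limma adjusted p up to 0.297). SDI2 at 24 h minus 2 h differed by 0.22 (SE 0.22, limma adjusted p = 0.721), with overlapping arrays.

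The summed signal of green tissue markers was lower on every replete array than on the untreated arrays. LHCB4.1 and RCA, the 2 measured of 5 listed photosynthesis genes, summed to between 150 and 354 on replete arrays, against 371 and 437 on the untreated arrays, and none was at 0. LHCB4.1 alone varied widely on replete medium at 4 h (146 ± 62.2, SD, n = 2). Neither this sum nor the part of these genes in the replete values of SDI1 and SDI2 was tested. On sulfate-free arrays the sum lay between 124 and 325. The 3 measured of 5 listed root markers (PYK10, a beta-glucosidase abundant in roots, and the root hair expansins EXPA7 and EXPA18) had median signals of 3255, 132 and 136, so the labelled tissue carried its markers. Their sum lay between 2229 and 4357 on sulfate-free arrays and between 2892 and 4250 on replete arrays. By limma 0 of the 5 measured markers of both tissues passed the test between media at 24 h or over the 5 times. Of all probe sets 0.161% rose and 0.198% fell at 24 h, and 0.242% and 0.234% did so over the 5 times. Nothing is read from that count. The largest marker difference between media at any time was that of PYK10 at 12 h (-0.66, SE 0.18, limma adjusted p = 0.347).

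**Figure D3:**
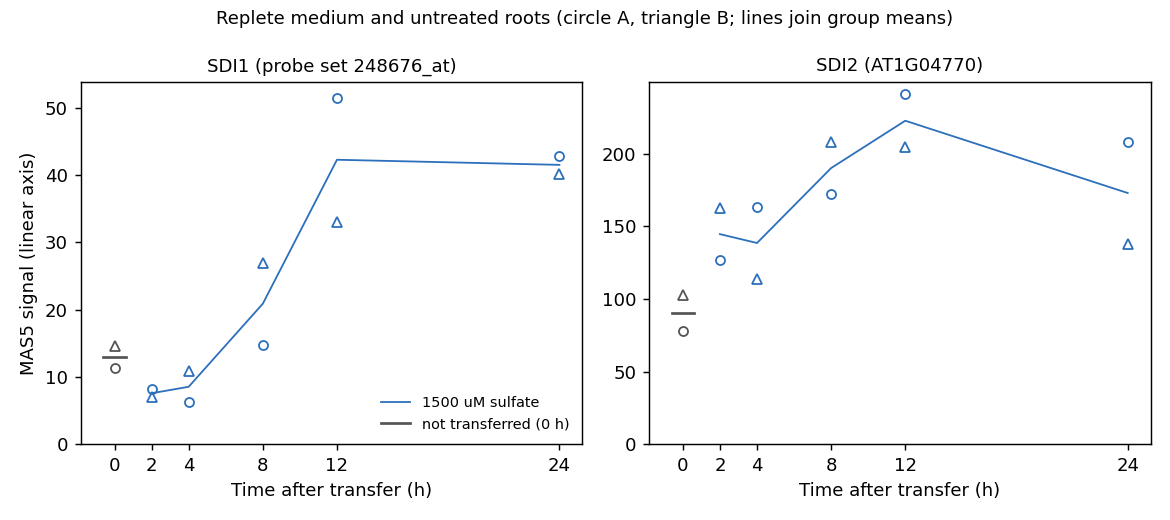
MAS5 signal (linear axis from 0) of SDI1 and SDI2 on replete medium and in untreated roots, for every array. Circles are arrays A, triangles arrays B, lines join group means and the short bar is the untreated mean. SDI1 lies at 6.23 to 10.8 at 2 and 4 h and at 33 to 51.5 at 12 and 24 h, against 11.3 and 14.6 in untreated roots.

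Ordered by mean signal, the 11 groups fell into steps for SDI1. Replete roots at 2 and 4 h were lowest and overlapped each other, followed by untreated roots and replete roots at 8 h, whose arrays did not overlap with their neighbours. Replete roots at 24 h and 12 h and sulfate-free roots at 2 and 4 h came next, and each overlapped the next in order. Sulfate-free roots at 8, 12 and 24 h were highest, with no overlap between neighbours. For SDI2 untreated roots were lowest. Replete roots at 4, 2, 24, 8 and 12 h followed, each overlapping the next. Sulfate-free roots at 2, 4 and 8 h came above them without overlap. Those at 24 h overlapped those at 8 h, and those at 12 h, which had the highest mean, overlapped those at 24 h.

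The patterns of SDI1 and SDI2 were alike over the 22 arrays (Pearson r = 0.845 on the log2 scale), which share medium and time. Over the 11 group means r was 0.878. Within the 10 sulfate-free arrays r was 0.788, and within the other 12 arrays it was 0.583. For deviations of the arrays from their group means r was -0.005, so the likeness lies between groups and not between arrays of a group. All these correlations are descriptions.

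Among named genes, that most like SDI1 over the 22 arrays was AT3G56200 (r = 0.949), the putative amino acid transporter. AT4G31330, of unknown function, had r = 0.931, and AT1G75280, an isoflavone reductase homologue, had r = 0.914. AT1G77670, of the pyridoxal phosphate-dependent transferases, and AT3G27150, a kelch-repeat F-box gene, had r = 0.866 and 0.86. The unnamed probe sets 249752_at and 246884_at were closer, with r = 0.976 and 0.95. SDI2 ranked 14th among 13647 probe sets in likeness to SDI1.

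AT3G56200 was also the named gene most like SDI2 (r = 0.897), followed by GTR1, a glucosinolate importer (r = 0.816), and FMO, a flavin monooxygenase gene (r = 0.777). AT2G26780 and AT3G26730 had r = 0.743 and 0.737, with differences between media of at most 0.17 and 0.32 on the log2 scale. The closest unnamed probe sets were 254343_at (r = 0.935) and 264745_at (r = 0.912). The unnamed 254343_at had differences between media of 0.83, 1.19, 1.30, 1.24 and 1.29 at 2, 4, 8, 12 and 24 h, against 0.87, 1.20, 1.01, 1.03 and 1.30 for SDI2. The unnamed 246884_at had 0.82, 1.17, 1.88, 3.38 and 4.42, below SDI1 up to 8 h and near it from 12 h on.

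**Figure D4:**
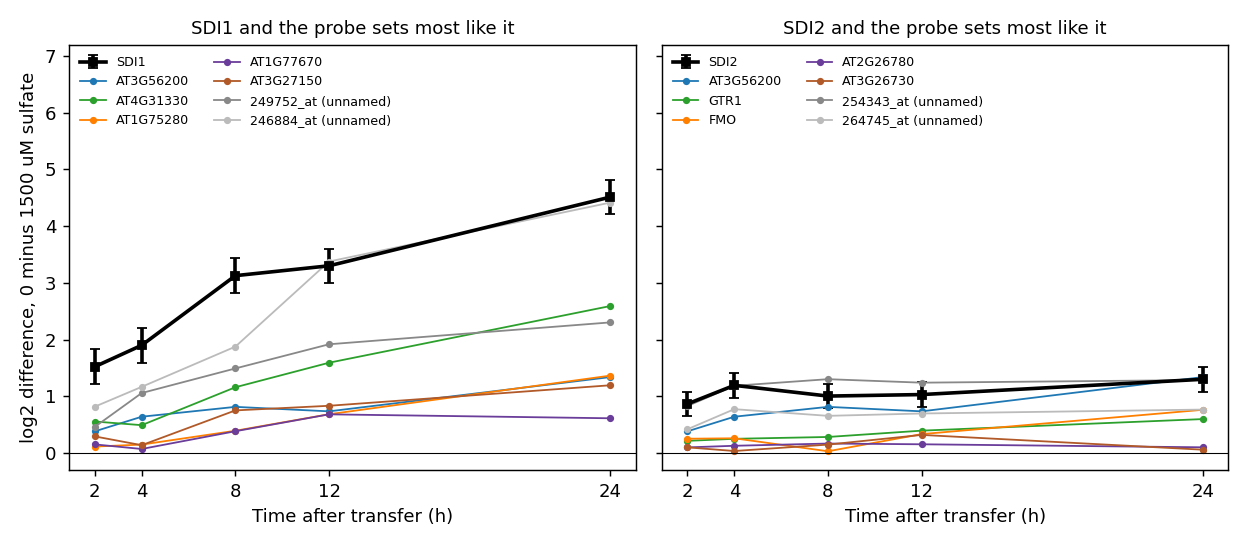
Difference between media (0 minus 1500 uM sulfate, log2(signal + 11) scale) against time after transfer for SDI1 (left, black) and SDI2 (right, black), each with the 5 named genes and 2 unnamed probe sets most like it over 22 arrays. Bars on the black lines are SE. The largest difference is 4.51 for SDI1 at 24 h, and 254343_at lies between 0.83 and 1.30, as against 0.87 to 1.30 for SDI2.

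Other genes of the low-sulfur response could be followed only in part. Of 16 listed response genes, BGLU28, which encodes a beta-glucosidase and is known to respond to low sulfur, was the 1 gene on a named probe set, and it lay below the filter. Its signal was 362 ± 42.6 on sulfate-free medium and 8.03 ± 2.57 on replete medium at 24 h (SD, n = 2 each). At 2 h the signal of BGLU28 was 8.09 ± 1.17 without sulfate and 6.81 ± 2.65 with it. These 2 h means and the replete mean at 24 h lay below 9.5, the lowest 25th percentile of any array. They are thus not shown to be above background, and an early response of BGLU28 cannot be judged from them. Of 4 other genes of the MS5-related family, 2 were on named probe sets and 1 was tested. That gene, AT3G51280, gave 75.3 ± 15.5 without sulfate and 75.8 ± 4.22 with it at 24 h (log2 difference -0.02, SE 0.18, limma adjusted p = 1).

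Aliphatic glucosinolate synthesis is the pathway that both proteins repress, and their part in the values below was not tested. The gene list was chosen with earlier results of these data known, so its p-values and counts are a description. Of the 28 listed genes 4 were tested, and 3 fell at 24 h, while 0 rose. Of all probe sets 0.198% fell. BCAT4, which opens methionine chain elongation, gave 206 ± 7.0 without sulfate and 1385 ± 129 with it (SD, n = 2 each; log2 difference -2.68, SE 0.17, limma adjusted p = 1.49e-07). The glucosyltransferase genes UGT74C1 and UGT74B1 fell by 1.59 and 0.91 on the log2 scale (limma adjusted p = 0.00306 and 0.00861). GSTU20, a glutathione transferase tied to the pathway, differed by -1.59 (limma adjusted p = 0.0622, and 4.35e-05 with the letter as a factor).

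The median over the 4 genes was -1.59 at 24 h, against 0.004 over all probe sets. At 12 h 1 of the 4 fell, against 0.0293% of all probe sets. Over the 5 times 3 fell, against 0.234% of all, with a median of -0.72. That count was 2 without the filter on low values, where GSTU20 had a limma adjusted p of 0.0535. It was 4 with either replicate block. UGT74B1 had a limma adjusted p of 0.0931 without a block, 0.0101 with the letter as a factor and 0.0058 with a random block of time by letter. The share of all probe sets called without the filter or with a block is not given, so nothing is read from these counts. Without the sulfate-free array A or without the replete array B of 24 h, 1 of the 4 passed at 24 h. BCAT4 differed from replete medium by -1.23 at 12 h (limma adjusted p = 0.0055).

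The list for sulfate assimilation and cysteine synthesis was also chosen with earlier results known, so its p-values and counts are a description. In it 3 of 13 listed genes were tested. By limma 0 of them rose and 0 fell at 24 h or over the 5 times. Of all probe sets 0.161% rose and 0.198% fell at 24 h, and 0.242% and 0.234% did so over the 5 times. Over all probe sets 399 had an unadjusted p under 0.05 at 24 h and 852 over the 5 times. The ATP sulfurylase genes APS3 and APS4 differed by 0.79 (SE 0.25) and -0.52 (SE 0.13) at 24 h, with limma adjusted p = 0.7 and 0.217. With the letter as a factor these became 0.0179 and 0.0455, and with a random block of time by letter 0.0552 and 0.0135. Over the 5 times APS3 had a limma adjusted p of 0.265 without a block, 0.00469 with the letter factor and 0.0141 with the random block, and APS4 had 0.285, 0.0767 and 0.0277. SIR, which encodes sulfite reductase, had a difference of -0.24 at 24 h (SE 0.21, limma adjusted p = 1).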

How the data were processed

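The submitters' processing notes name MAS5, and the values the authors deposited are linear intensity signals per probe set. The sources used here do not give its version or scaling target. Trimmed by 2% at each end, every array averaged 100.01, and the signals were used without further normalization. Arrays carry no counting depth, and their number limits the precision. The 22 arrays were grouped by title. After 64 array controls were left out, log2(signal + 11) was taken, where 11 is 0.25 of the pooled median (43.9), rounded. Those whose mean reached the 40th percentile (a signal of about 27.0) were kept, 13648 of 22746. SDI1 passed that filter only through its sulfate-free arrays, since its mean over the other 12 arrays was 4.91 on the log2 scale, against a limit of 5.25. SDI2 passed in either case (7.36).

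All 11 groups entered 1 fit in limma 3.58.1 (R 4.3.3, lmFit and trended eBayes), with 11 residual and 5.61 prior degrees of freedom. Benjamini-Hochberg adjustment ran over all 13648 probe sets, with a threshold of 0.05. Likeness was ranked by Pearson r over the 22 arrays. The text names the pair, the 5 named genes and 2 unnamed probe sets most like each, and list members on named probe sets. The annotation gives 1 gene for 13513 probe sets, and symbols were updated through the RefSeq table of TAIR10.1. The members and lists were chosen with earlier results of these data known.

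The letters A and B occur in every group. The A minus B difference of each group was compared with that of other groups across probe sets. Sulfate-free and replete roots of the same time gave r from 0.225 to 0.631. Replete and untreated roots gave r from 0.238 to 0.496. Taking every 1 of the 55 pairs of groups, the median r was 0.316 (lowest 0.028, highest 0.644). The A minus B difference was thus in part shared across the series. The main fit had no term for the letter, so its p-values take no account of this, and the letter entered only in the replicate blocks. Alternatives were other pseudocounts, no filter, quantile normalization, no trend, the arrays compared alone, both replicate blocks and leaving out each array. Blocked values stand in the text where they change a call.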

Additional observations from a re-analysis of the deposited data

Results flagged for a closer look

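On replete medium, SDI1 lay below both untreated arrays on all arrays of 2 and 4 h and above them on all arrays of 8, 12 and 24 h. Only the difference at 12 h passed the test against untreated roots (limma adjusted p = 0.684, 0.821, 0.514, 0.0347 and 0.326 at 2, 4, 8, 12 and 24 h), and such separations were common among all probe sets, so no change of direction is shown. By limma the difference from 2 h was 0.75 at 8 h, 1.5 at 12 h and 1.5 at 24 h on the log2 scale (SE 0.30; adjusted p = 0.206, 0.00608 and 0.0104). Against 4 h it was 0.69, 1.43 and 1.44 (adjusted p = 0.466, 0.0191 and 0.0285). The contrasts with 2 and 4 h were chosen after the values had been seen. SDI1 also passed the filter on low values only through its sulfate-free arrays, so all these p-values are a description. The signals at 2 h, and that of array A at 4 h, lay below the 25th percentile of their arrays.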

How the results depend on the processing

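No sign changed for SDI1 or SDI2 under any alternative run, and no difference between media of SDI2 moved by more than its within-group SD except when 1 array was left out. With a pseudocount of 1, the differences between media of SDI1 were 2.34, 2.73 and 3.65 at 2, 4 and 8 h and 3.42 over the 5 times. With a pseudocount of the pooled median they were 0.75, 1.03, 2.25, 2.68 and 3.85 at 2, 4, 8, 12 and 24 h and 2.11 over the 5 times. SDI1 on replete medium at 12 h minus untreated was no longer called with that pseudocount (0.59), without the filter (1.13) or with quantile normalization (1.07). With that pseudocount the differences of SDI1 within replete medium at 24 h against 2 h (0.73) and at 12 and 24 h against 4 h (0.71 and 0.70) no longer passed the threshold. Nor did that at 24 h against 4 h without the filter (1.44), or that at 12 h against 4 h with only the arrays compared (1.43). The cause was not tested.

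Leaving out 1 array at a time moved the difference between media at 4 h between 1.30 and 2.51 for SDI1 and between 0.95 and 1.44 for SDI2, and that of SDI2 at 24 h between 1.02 and 1.58. The replete minus untreated difference lay between 0.88 and 1.39 at 12 h for SDI1, and between 0.82 and 1.17 at 8 h and 1.04 and 1.39 at 12 h for SDI2. Within replete medium SDI1 differed by 1.25 to 1.75 (12 h against 2 h), 1.45 to 1.54 (24 h against 2 h), 1.18 to 1.69 (12 h against 4 h) and 1.26 to 1.61 (24 h against 4 h). Of the glucosinolate genes 1 to 4 were called at 24 h, and 2 to 4 over the 5 times.

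With the letter as a factor (replicate block), SDI1 on replete medium at 12 h had limma adjusted p = 0.00632, and with the replicate block of time and letter 0.0267. Of the 3 assimilation genes the letter factor called 2 at 24 h and 1 over the 5 times. A random block of time by letter called 1 and 2. The letter factor also raised calls over all probe sets, from 6.39% to 16.1% for replete minus untreated at 12 h. With the random block that share was 7.08%. Shares between media with a block are not given here, so nothing is read from these counts. The blocks changed no call of SDI1 or SDI2.

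Likeness of SDI2 to SDI1 was 0.875 by Spearman's rho and 0.855 with a pseudocount of 1. The dim signals of SDI1 at 2 and 4 h on replete medium limit its early ratios.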
